A study of Mus musculus with 6 samples.

Results

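The genes described here are those of p53, of its transcriptional targets and of the machinery of apoptosis. They were chosen by name, as all probes whose platform symbol was one of 38 gene symbols. Of these, 35 genes were found, on 39 of the 20289 probes of the array, and no probe was named for Trp53, Bax or Casp9, which were not analysed here. By role the 35 genes comprise 9 p53 pathway genes, 18 genes that promote cell death and 8 that inhibit it. RNA came from the urogenital ridge of mouse embryos of the Mf1 strain at E11.5, with 11 to 12 tail somites, just before the sexes diverge. One genotype was homozygous for a deletion of Wt1, the Wilms tumour gene (KO below), and the other was wild type (WT). Each genotype had 3 single-colour arrays, and the label of every array gives 5 pooled embryos, of which 4 were female and 1 male. Whether separate pools were used for the arrays of a genotype is not stated, and p-values therefore reflect the array-to-array spread alone, which may be technical.

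The protein p53 is a transcription factor that is stabilised by DNA damage and other stress and switches on genes that halt the cell cycle, repair DNA or start apoptosis. In the mitochondrial route to apoptosis, BH3-only proteins release the effectors BAX and BAK from restraint by BCL2-type proteins, cytochrome c leaves the mitochondria, and APAF1 with cytochrome c activates caspase-9. In the receptor route, ligands of FAS and of the TRAIL receptor activate caspase-8 through FADD, and BID connects the receptor route to the mitochondria. Inhibitor of apoptosis proteins (IAPs) and FLIP hold caspases in check, and DIABLO frees caspases from the IAPs. Apoptosis of the kidney primordium is a known feature of Wt1-null mouse embryos.

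Promoter sequences are shown here for 4 p53 targets, because 2 of them were higher and 2 lower in KO ridges although each of the 4 windows holds a p53 half-site, and for Casp2, whose window holds a binding sequence of the WT1 protein. The windows run from 250 bases before to 50 bases after a transcription start annotated by RefSeq on GRCm38.p6, written 5′ to 3′ on the gene's strand. Capitals mark matches to the p53 half-site in the first 4 sequences and to GCGTGGGNG in the fifth, on either strand.
Cdkn1a, GRCm38.p6 chr17:29090729-29091028, plus strand: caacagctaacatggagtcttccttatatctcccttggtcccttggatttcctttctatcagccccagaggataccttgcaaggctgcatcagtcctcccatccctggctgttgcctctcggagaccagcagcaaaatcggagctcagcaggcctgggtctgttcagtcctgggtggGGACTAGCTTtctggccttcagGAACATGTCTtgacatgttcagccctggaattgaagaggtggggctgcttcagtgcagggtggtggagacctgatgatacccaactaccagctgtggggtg
Sesn1, GRCm38.p6 chr10:41887189-41887488, plus strand: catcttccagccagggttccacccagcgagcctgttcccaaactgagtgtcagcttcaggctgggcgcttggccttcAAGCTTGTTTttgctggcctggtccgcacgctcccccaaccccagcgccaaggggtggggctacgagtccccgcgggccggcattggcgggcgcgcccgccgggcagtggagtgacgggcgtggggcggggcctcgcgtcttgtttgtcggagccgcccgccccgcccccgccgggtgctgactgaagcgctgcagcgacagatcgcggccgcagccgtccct
Ccng1, GRCm38.p6 chr11:40755237-40755536, minus strand: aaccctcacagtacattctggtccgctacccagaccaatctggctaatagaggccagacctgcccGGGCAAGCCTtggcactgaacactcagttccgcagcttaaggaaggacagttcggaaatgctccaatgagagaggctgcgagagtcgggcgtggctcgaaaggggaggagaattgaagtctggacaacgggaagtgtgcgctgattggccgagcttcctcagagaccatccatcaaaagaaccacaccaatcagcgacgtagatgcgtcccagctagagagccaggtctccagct
Gtse1, GRCm38.p6 chr15:85859696-85859995, plus strand: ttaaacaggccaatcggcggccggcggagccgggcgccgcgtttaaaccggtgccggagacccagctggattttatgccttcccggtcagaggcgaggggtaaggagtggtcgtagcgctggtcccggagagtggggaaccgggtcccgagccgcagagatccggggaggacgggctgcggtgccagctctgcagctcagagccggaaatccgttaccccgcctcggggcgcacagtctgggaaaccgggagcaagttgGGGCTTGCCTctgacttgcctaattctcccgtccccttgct
Casp2, GRCm38.p6 chr6:42264735-42265034, plus strand: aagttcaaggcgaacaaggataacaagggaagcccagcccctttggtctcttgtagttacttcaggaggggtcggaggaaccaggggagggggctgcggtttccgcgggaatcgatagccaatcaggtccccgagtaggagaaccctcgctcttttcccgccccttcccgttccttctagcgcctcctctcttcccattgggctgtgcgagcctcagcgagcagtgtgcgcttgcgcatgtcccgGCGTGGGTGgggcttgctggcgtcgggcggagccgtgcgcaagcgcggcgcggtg
Windows were counted for 33 of the 38 genes, 47 in all since some genes have several. Pmaip1 was left out of this count, so whether its promoter holds a p53 or WT1 sequence is not known here. The background of all windows had no such exclusion. The p53 half-site was found in 10 of the 47 windows (21.3%), each of a different gene, and in 8.36% of all 32851 windows. A full p53 site was defined as 2 half-sites at most 13 bases apart. It was found in 1 of the 47 windows, that of Cdkn1a (2.13%), and in 0.07% of all windows. The first bases of its half-sites lie 73 and 51 bases before the start annotated for this window. Whether that is the main start of Cdkn1a was not determined. The stretch tgacatgttc directly after the second half-site differs from the half-site pattern in its first base and is therefore not marked. The WT1 sequence GCGTGGGNG was found in Casp2, 5 bases before the start, and in Bbc3, which makes 4.26% of the 47 windows, against 1.90% of all windows. The related sequence GCGGGGGCG was found in Bbc3, Bcl2l11 and Sesn1, 6.38% of the 47 windows, against 2.91% of all windows. In Sesn1 this match lies 10 bases before the start, on the opposite strand and in lower case above. Neither sequence is particular to WT1, since EGR proteins bind such sequences as well. No match was read as a working site.

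Wt1 was lower on every KO array. Its brighter probe had intensities of 14.3, 15.7 and 14.2 in KO and of 44.1, 43.6 and 39.1 in WT, a log2 change of -1.52 ± 0.08 (SE, adjusted p = 1.13e-07). The position of the probe relative to the deletion is not given in the sources used here. All adjusted p-values are from limma's moderated test on 15062 probes after Benjamini-Hochberg adjustment, two-sided, with a threshold of 0.05. Of these probes 41.3% were called, 24.1% as higher and 17.2% as lower in KO, and the median log2 change was 0.09. Cell type markers differed as well. In the coelomic and gonadal list, which includes Wt1 itself, 10 of 13 tested genes were lower and 0 higher. The summed intensity of this list was 63.7 to 64.0 in KO and 129 to 137 in WT. Much of the difference lies in Wt1, with means of 14.7 in KO and 42.3 in WT, and Amhr2, with 0.480 and 30.6. Among neural crest and neuronal genes 8 of 11 were higher and 0 lower, with a sum of 86.5 to 87.2 in KO and 48.9 to 50.4 in WT. Among skeletal muscle genes 6 of 10 were higher and 1 lower, with a sum of 54.1 to 60.0 in KO and 47.6 to 50.5 in WT. Of 7 endothelial genes 5 were lower and 1 higher, with a median log2 change of -0.53 and a sum of 75.8 to 76.1 in KO and 78.0 to 80.0 in WT. Of 9 liver and gut genes 4 were higher and 1 lower, with a sum of 25.6 to 26.8 in KO and 6.75 to 7.32 in WT. Of 5 erythroid genes 0 were called, and 3 were called lower after quantile normalization. In whole ridges, fewer cells of a type and less RNA per cell cannot be told apart, and the part of these shifts in the results below was not tested.

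Of the 35 genes, 32 passed the filter on dim probes and were tested, and 10 of them were higher, 9 lower and 13 not past the threshold in KO ridges. The 19 called genes are 59.4% of those tested, beside 41.3% of all tested probes. KO and WT arrays were fully apart for 22 of the 32 genes, beside 52.8% of all tested probes. The median log2 change of the 32 genes was -0.09. The largest decrease was in Bok, an effector of the BAX type, and the largest increase in Pmaip1, which encodes the BH3-only protein NOXA. The plot of changes by role shows decreases and increases side by side among the p53 genes and among the promoters of death.

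**Figure D1:**
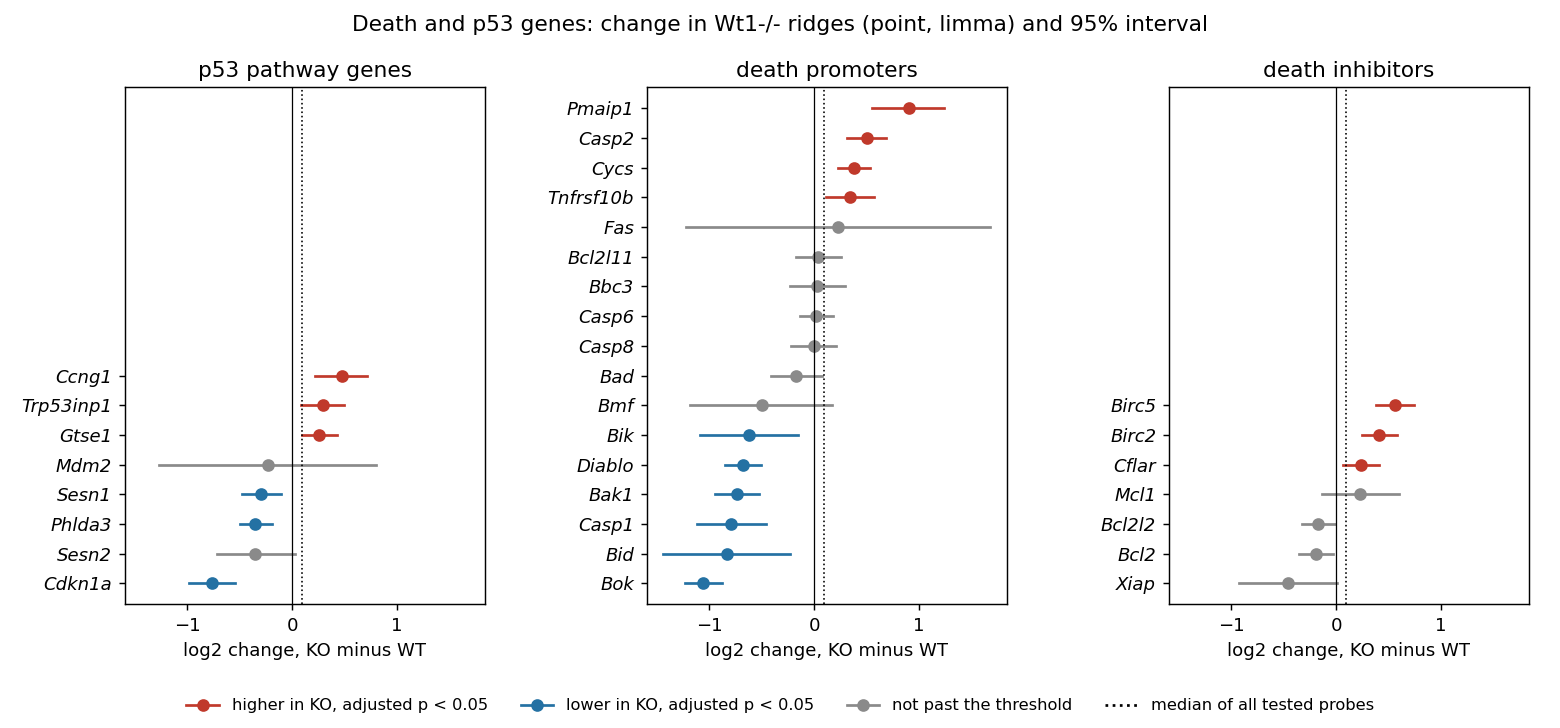
Each point is the log2 change, KO minus WT, of 1 tested gene on its brightest probe, with its 95% interval from limma (3 arrays per genotype), and the dotted line is the median of all tested probes, 0.09. Among 17 tested death promoters 4 were higher and 6 lower, and among 7 tested death inhibitors 3 were higher and 0 lower. Of all tested probes 24.1% were higher and 17.2% lower.

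Of the 8 tested p53 pathway genes 3 were lower and 3 higher. Each share was 37.5%, beside 17.2% lower and 24.1% higher among all tested probes. Their median log2 change was -0.27, beside 0.09 for all tested probes. Cdkn1a, which encodes the cell cycle inhibitor p21 and is the best known p53 target, had intensities of 1.71, 1.64 and 1.41 on the KO arrays and of 2.73, 2.73 and 2.60 on the WT arrays. All KO arrays lay below all WT arrays. The means were 1.59 ± 0.160 in KO and 2.69 ± 0.0726 in WT (SD, n = 3 each), and limma gave a log2 change of -0.76 ± 0.10 (SE, adjusted p = 9.43e-05). Phlda3, whose protein represses AKT signalling, averaged 4.86 ± 0.119 in KO and 6.17 ± 0.120 in WT (SD, n = 3 each), a log2 change of -0.35 ± 0.07 (limma, adjusted p = 0.00238). Sesn1, a sestrin that restrains mTORC1, had 2.94, 2.96 and 2.70 in KO and 3.33, 3.72 and 3.53 in WT, with a log2 change of -0.30 ± 0.08 (adjusted p = 0.0138). The call of Sesn1 ended without KO array 3 (adjusted p = 0.0554) and without WT array 2 (0.0759).

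In the opposite direction, Ccng1, the cyclin G1 gene, had intensities of 3.01, 3.02 and 3.62 in KO and of 2.33, 2.63 and 2.03 in WT. No KO array reached down to the highest WT array, and the log2 change was 0.47 ± 0.11 (SE, adjusted p = 0.00598). Trp53inp1, which encodes a p53-induced nuclear protein, had 14.5, 12.6 and 12.5 in KO and 11.8, 9.57 and 11.1 in WT, a log2 change of 0.29 ± 0.09 (adjusted p = 0.0285). That call ended after quantile normalization, where the log2 change was 0.23 (adjusted p = 0.0974), after cyclic loess normalization (0.136), without an intensity trend (0.0936), and without WT array 2 (0.147) or 3 (0.0631). Gtse1, a gene expressed in S and G2 phase whose product can restrain p53, averaged 6.09 ± 0.0884 in KO and 5.09 ± 0.339 in WT (SD, n = 3 each), with no overlap. Its log2 change was 0.26 ± 0.08 (adjusted p = 0.0194), and the call ended without WT array 1 (0.0503) or 3 (0.0847).

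The remaining p53 genes gave no call. Sesn2, the second sestrin gene, had 0.746, 0.778 and 1.19 in KO and 1.10, 1.08 and 1.20 in WT. KO array 3 lay within the WT values and the other KO arrays lay below them, so the log2 change of -0.35 had a 95% interval from -0.72 to 0.03 (limma, adjusted p = 0.127). Without KO array 3 the log2 change was -0.56, with adjusted p = 0.00770. Mdm2, whose protein ubiquitinates p53 and is itself induced by it, was dim, with 0.172, 0.181 and 0.326 in KO and 0.152, 0.359 and 0.303 in WT. Its interval, from -1.27 to 0.80, leaves room for a change in either direction. Perp, a desmosome gene induced by p53, lay under the filter with 0.0989, 0.261 and 0.101 in KO and 0.183, 0.0859 and 0.0486 in WT, and was not tested.

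Both effectors of the BAX type that were measured were lower in KO ridges. Bok had 2.93, 3.05 and 2.95 on the KO arrays and 6.35, 6.55 and 5.72 on the WT arrays, so that every KO value was well under every WT value. The means were 2.98 ± 0.0679 in KO and 6.20 ± 0.432 in WT (SD, n = 3 each), so the signal was 2.08-fold lower in KO (log2 change -1.06 ± 0.08, SE, limma, adjusted p = 2.47e-06). Bok was the 1 gene among the 32 called with a change of 2-fold or more, beside 4.69% of all tested probes. Bak1 had 2.42, 2.43 and 2.73 in KO and 3.79, 4.57 and 4.30 in WT. Again the genotypes did not overlap, and the log2 change was -0.74 ± 0.10 (adjusted p = 9.18e-05). Both calls held in all 17 alternatives, in which the log2 change ran from -1.12 to -1.02 for Bok and from -0.82 to -0.68 for Bak1.

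Of the 7 BH3-only genes, which encode the sensors that set off the mitochondrial route, 2 were lower, 1 was higher and 4 were not called. The called share of 42.9% was near the 41.3% of all tested probes, with 28.6% lower beside 17.2% and 14.3% higher beside 24.1%. Pmaip1, the p53 target that encodes NOXA, had 1.04, 1.17 and 1.34 in KO and 0.629, 0.542 and 0.738 in WT. The lowest KO array lay above the highest WT array, and the log2 change was 0.90 ± 0.16 (SE, limma, adjusted p = 0.000788), the largest increase among the 32 genes. Bid, the link between receptor and mitochondria, had 0.327, 0.221 and 0.394 in KO and 0.618, 0.462 and 0.568 in WT, a log2 change of -0.83 ± 0.28 (adjusted p = 0.0310). Bik had 0.398, 0.540 and 0.365 in KO and 0.653, 0.754 and 0.582 in WT, a log2 change of -0.62 ± 0.22 (adjusted p = 0.0363). The genotypes did not overlap for either gene, but both probes were dim and the calls were close to the threshold. The call of Bid ended without KO array 2 (adjusted p = 0.0718) or WT array 1 (0.131) or 3 (0.106). That of Bik ended with no filter on dim probes (0.0594), without KO array 1 (0.0514) or 3 (0.0915), and without WT array 1 (0.0984), 2 (0.158) or 3 (0.0567).

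Among the BH3-only genes with no call, Bbc3 and Bcl2l11 had narrow intervals. Bbc3, the p53 target that encodes PUMA, averaged 1.35 ± 0.158 in KO and 1.32 ± 0.0876 in WT (SD, n = 3 each), a log2 change of 0.03 with a 95% interval from -0.23 to 0.29. Bcl2l11, which encodes BIM, averaged 2.37 ± 0.236 in KO and 2.30 ± 0.113 in WT, with an interval from -0.17 to 0.26. The p53 targets Pmaip1 and Bbc3 thus had intervals of 0.55 to 1.24 and of -0.23 to 0.29, which do not meet, although the difference between them was not tested. Bad, whose protein binds BCL2-type proteins, had an interval from -0.41 to 0.07, and Bmf, which was dim, one from -1.18 to 0.17.

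Of the receptor route, Tnfrsf10b was called and Fas and Casp8 were not. Tnfrsf10b, the TRAIL receptor gene and a p53 target, averaged 1.66 ± 0.146 in KO and 1.31 ± 0.0557 in WT (SD, n = 3 each), with no overlap. Its log2 change was 0.34 ± 0.11 (SE, limma, adjusted p = 0.0223), and the call ended without KO array 3 (0.0799) or WT array 1 (0.0544), 2 (0.0563) or 3 (0.0828). Fas was too dim to place, with 0.116, 0.387 and 0.390 in KO and 0.327, 0.409 and 0.0654 in WT and an interval from -1.22 to 1.68. Casp8, the initiator caspase of this route, had 7.66, 9.82 and 9.57 in KO and 8.65, 8.78 and 9.57 in WT. The genotypes overlapped, and the interval of the log2 change ran from -0.22 to 0.21.

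The other caspases went separate ways. Casp2, an initiator caspase that the PIDD complex activates, had 55.8, 48.7 and 50.5 in KO and 33.0, 37.9 and 38.8 in WT. Every KO array was above every WT array, and the log2 change was 0.50 ± 0.08 (SE, limma, adjusted p = 0.000640). Casp1, the inflammatory caspase that matures interleukin-1 beta, had 0.684, 0.744 and 0.537 in KO and 1.13, 1.16 and 1.07 in WT, a log2 change of -0.79 ± 0.15 (adjusted p = 0.00146). Macrophages are 1 known source of Casp1, and of 8 tested macrophage markers 2 were higher and 1 lower, with a summed intensity of 29.0 to 32.6 in KO and 29.3 to 29.6 in WT. Casp6, an executioner caspase, had 49.9, 55.2 and 56.4 in KO and 52.3, 54.9 and 51.8 in WT on its brighter probe, with an interval of the log2 change from -0.14 to 0.18. After quantile normalization Casp6 was called lower on this probe, with a log2 change of -0.23 (adjusted p = 0.00951), so its direction rests on the scaling. The second Casp6 probe was dim, with 0.497, 0.565 and 0.466 in KO and 0.409, 0.308 and 0.427 in WT. Its log2 change of 0.43 was not called (limma, adjusted p = 0.166).

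Proteins released from mitochondria also differed from each other. Diablo, the IAP antagonist also known as SMAC, had 4.84, 5.12 and 5.14 in KO and 7.93, 7.71 and 8.58 in WT. The gap between the genotypes was much wider than the spread within them, and the log2 change was -0.68 ± 0.08 (SE, limma, adjusted p = 3.38e-05). Cycs, the somatic cytochrome c gene, had 114, 121 and 114 in KO and 86.6, 91.7 and 89.8 in WT, a log2 change of 0.38 ± 0.07 (adjusted p = 0.00109). That call ended after quantile normalization (log2 change 0.09, adjusted p = 0.265) and after cyclic loess normalization (adjusted p = 0.224). Cycs has processed pseudogenes in the mouse genome, and whether its probe separates them is not known here. Apaf1, the caspase-9 activator, was listed at 0.00562, 0.170 and 0.204 in KO and 0.265, 0.242 and 0.361 in WT and was too dim to be tested.

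**Figure D2:**
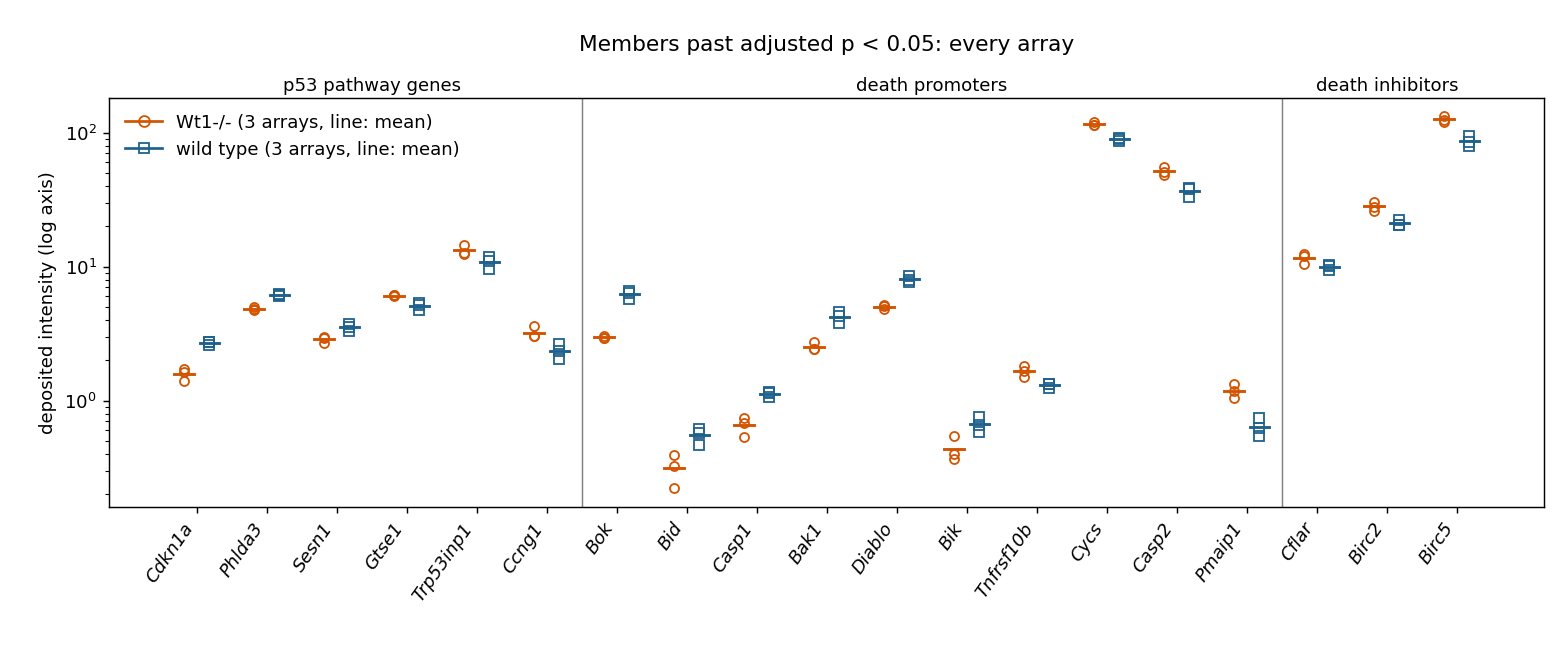
Deposited intensities on a log axis for the 19 genes past the threshold, with 3 KO arrays as circles left of 3 WT arrays as squares and a line at each mean. For all 19 genes every KO array lies on 1 side of every WT array, beside 52.8% of all tested probes. The genes shown were picked by their calls on these same arrays, so their separation adds no support to the calls.

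Among the inhibitors of death, 3 of 7 tested genes were higher in KO ridges and 0 lower. Of all tested probes 24.1% were higher and 17.2% lower, with a larger share of increases among bright probes, as given below. Birc5, which encodes survivin, an IAP family member that works mainly in mitosis, had 121, 133 and 125 in KO and 84.7, 94.0 and 79.5 in WT. The genotypes were far apart, with means of 126 ± 6.22 in KO and 86.1 ± 7.40 in WT (SD, n = 3 each) and 0.56 ± 0.08 as the log2 change (SE, limma, adjusted p = 0.000232). Birc2, which encodes the ubiquitin ligase cIAP1, had 26.2, 30.3 and 28.0 in KO and 20.5, 22.3 and 20.5 in WT on its brighter probe, a log2 change of 0.41 ± 0.08 (adjusted p = 0.00120). Its second probe was dim and scattered, with 0.185, 0.110 and 0.663 in KO and 0.302, 0.432 and 0.426 in WT, and an interval from -1.89 to 0.53. Averaging both probes gave Birc2 a log2 change of -0.13 (adjusted p = 0.691). Cflar, the FLIP gene, had 10.5, 12.5 and 12.1 in KO and 10.1, 10.2 and 9.50 in WT, a log2 change of 0.24 ± 0.08 (adjusted p = 0.0378). The call of Cflar held in 7 of 17 alternatives. It was lost after quantile (adjusted p = 0.0586) and cyclic loess normalization (0.103), without an intensity trend (0.0943), with both probes averaged (0.572), with the replicate number as a block (0.0514), and when any array other than KO array 1 was left out, with KO array 2 or 3 giving 0.122 or 0.120 and WT array 1, 2 or 3 giving 0.0854, 0.0823 or 0.128.

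The BCL2-type survival genes were not among the genes called. Bcl2 itself had 4.38, 4.61 and 4.43 in KO and 5.13, 5.04 and 5.15 in WT. The KO arrays lay below the WT arrays, and the log2 change of -0.19, with a 95% interval from -0.35 to -0.03, just missed the threshold (limma, adjusted p = 0.0532). Over the alternatives its adjusted p lay between 0.0341 and 0.148, and it was 0.0473 without KO array 1. Bcl2l2, which encodes BCL-w, had 7.08, 7.75 and 7.26 in KO and 8.15, 8.67 and 8.04 in WT, a log2 change of -0.17 (adjusted p = 0.0853), and was called lower after quantile normalization (adjusted p = 0.0346). Mcl1 was spread widely in WT, with 10.1, 8.66 and 10.1 in KO and 5.94, 10.9 and 8.54 in WT, and its interval ran from -0.14 to 0.60. Without WT array 2 Mcl1 passed with a log2 change of 0.43 (adjusted p = 0.0438). Xiap, whose protein inhibits caspases directly, was dim and had an interval from -0.93 to 0.01. Bcl2l1, which encodes BCL-xL, lay under the filter with 0.156, 0.227 and 0.158 in KO and 0.102, 0.0855 and 0.127 in WT, and was not tested.

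Promoters and inhibitors of death were set side by side by counts and medians. Of the 17 tested promoters 23.5% were higher and 35.3% lower in KO, and of the 7 tested inhibitors 42.9% were higher and 0 of 7 lower, beside 24.1% higher and 17.2% lower among all tested probes. The median log2 change was -0.0042 for the promoters and 0.23 for the inhibitors, beside 0.09 for all tested probes. On the scale of log2 values centred on each probe's own mean, the promoters averaged -0.21, -0.06 and 0.01 on KO arrays 1 to 3 and 0.08, 0.19 and -0.01 on the WT arrays. The inhibitors averaged -0.03, 0.10 and 0.06 on the KO arrays and -0.11, 0.09 and -0.11 on the WT arrays. In both roles the genotypes overlapped on these averages. For the promoters the overlap lay only between 0.01 on KO array 3 and -0.01 on WT array 3. WT array 3 also holds the lowest value of the dim gene Fas, 0.0654, which was set to the floor of 0.0811. The average without Fas was not computed, so whether the promoters as a whole were set apart is not settled here. The difference between the roles was not tested. After quantile normalization 7 of the 32 tested genes were higher and 11 lower. Of these roles, 3 promoters were higher and 7 lower, and 2 inhibitors were higher and 1 lower, where 20.2% of all tested probes were higher and 19.6% lower.

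Brightness moved with the direction of the calls. In the brightest eighth of the tested probes the median log2 change was 0.26, with 54.9% called higher and 8.60% lower. Casp2, Cycs, Birc2, Birc5 and Casp6 lie in that eighth, so 4 of the 10 increases among the 32 genes do. Cflar and Trp53inp1, both called higher, lie in the next brightest eighth, where 37.3% of the probes were called higher and 19.6% lower. All the increases among the death inhibitors thus lie where increases were common. After quantile normalization the median of the brightest eighth was -0.00024. Casp2 then had a log2 change of 0.26 (limma, adjusted p = 0.0487), Birc2 0.25 (0.00802) and Birc5 0.25 (0.0108). Bok, Diablo, Bak1 and Cdkn1a lie in the fourth to sixth eighths, whose medians were between 0.00 and 0.05, and their changes after quantile normalization were -1.03, -0.68, -0.69 and -0.72. The plot of change against brightness shows these decreases apart from the band of bright increases.

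**Figure D3:**
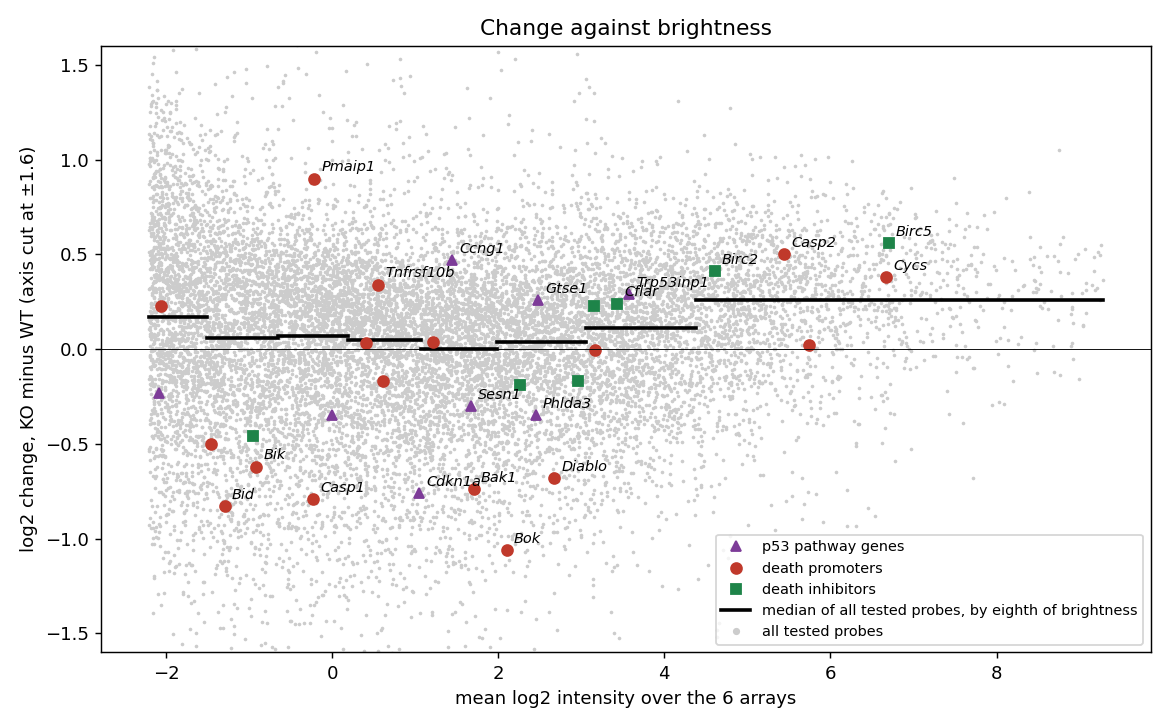
Log2 change, KO minus WT, against mean log2 intensity over the 6 arrays for all tested probes (grey) and the 32 tested genes by role, with black bars at the median of each eighth of brightness. The median rises to 0.26 in the brightest eighth, where Birc5, Cycs, Casp2 and Birc2 lie, while Bok, Bak1, Cdkn1a and Diablo lie well below the medians of their eighths.

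Birc5 and Gtse1 are genes of dividing cells, so they were set beside 16 tested mitotic genes. Of these 6 (37.5%) were higher and 3 (18.8%) lower in KO, beside 24.1% higher and 17.2% lower among all tested probes. The summed intensity of the list, to which the brightest probes add most, was 579 to 639 in KO and 463 to 475 in WT. With every gene weighted equally, the centred log2 values averaged 0.01, -0.05 and 0.08 on the KO arrays and 0.01, 0.0025 and -0.04 on the WT arrays, which overlap. The median log2 change was 0.14, and -0.05 after quantile normalization, where 5 genes were higher and 4 lower. Mki67, the proliferation marker gene, had 157, 176 and 167 in KO and 105, 103 and 96.9 in WT, a log2 change of 0.71 (limma, adjusted p = 2.52e-05). Plk1, a kinase gene of mitotic entry, had 1.56, 1.55 and 1.88 in KO and 3.42, 3.40 and 3.44 in WT, a log2 change of -1.05 (adjusted p = 9.45e-06). The partners of survivin in the chromosomal passenger complex include Aurora B, and Aurkb fell while Birc5 rose, with a log2 change of -0.43 (adjusted p = 0.0140). The call of Aurkb ended without an intensity trend (0.0521), without KO array 3 (0.0528) and without WT array 1 (0.0619). The part of the mitotic genes in the change of Birc5 and Gtse1 was not tested.

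**Figure D4:**
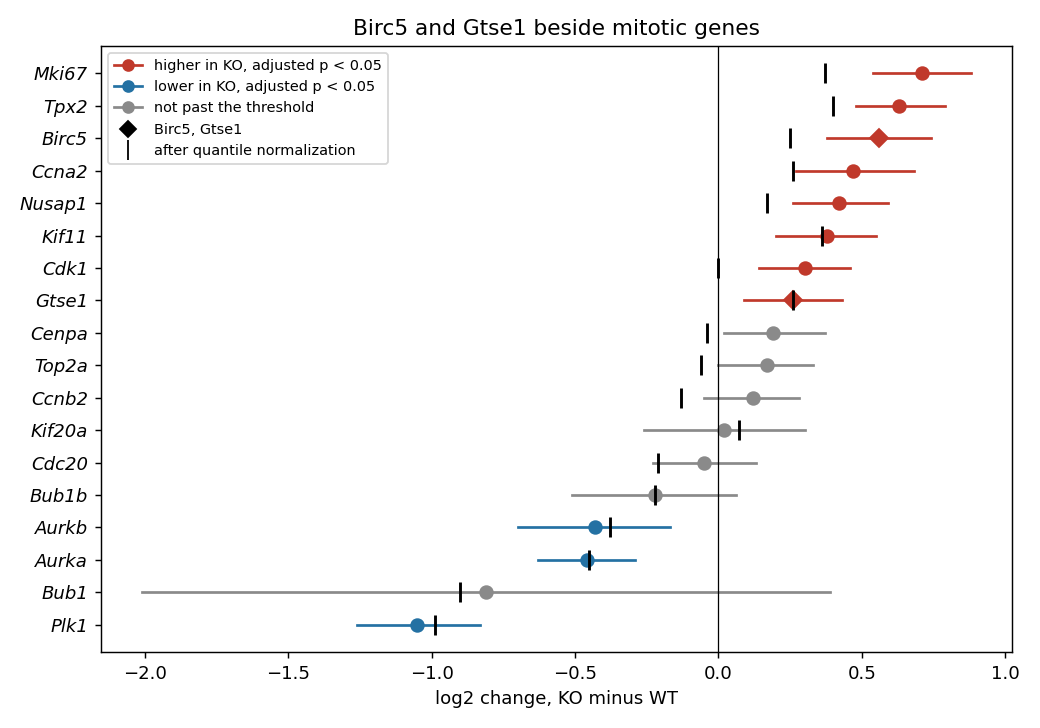
Log2 change, KO minus WT, with 95% intervals for 16 mitotic genes (circles) and for Birc5 and Gtse1 (diamonds), with a black tick at the value after quantile normalization. Mki67 lies at 0.71 and Plk1 at -1.05, with Birc5 at 0.56 between Tpx2 and Ccna2.

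A further 73 genes of the same pathways were looked up, of which 63 had a probe and 56 were tested. In KO ridges 10 of them were higher, 14 lower and 32 not called, so 42.9% were called, beside 41.3% of all tested probes, and their median log2 change was -0.07. The largest decrease was in Dapk3, a death-associated kinase gene, which averaged 1.42 ± 0.0744 in KO and 3.72 ± 0.0314 in WT (SD, n = 3 each, log2 change -1.39, limma, adjusted p = 5.60e-07). Cradd, whose product is the adaptor between PIDD and caspase-2, had 2.02, 2.03 and 2.07 in KO and 4.28, 4.63 and 4.55 in WT, a log2 change of -1.14 (adjusted p = 1.29e-06). It was thus lower in the same ridges in which Casp2 was higher. Fadd, the adaptor of the death receptors, was higher, with 13.9 to 15.7 in KO and 9.28 to 10.4 in WT, a log2 change of 0.60, and Tnfrsf1a, the TNF receptor gene, was lower, with 2.97 ± 0.0452 in KO and 5.46 ± 0.124 in WT, a log2 change of -0.88.

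Further genes named for a change of at least 1.5-fold lay on both sides. Bnip3, a gene of mitophagy and hypoxia, had the largest increase, with 25.5, 29.8 and 29.6 in KO and 11.1, 12.1 and 11.0 in WT, a log2 change of 1.31 (limma, adjusted p = 6.12e-07). Atr and Hipk2, kinase genes that act upstream of p53, were 1.75-fold and 1.51-fold higher. Both probes are bright, and after quantile normalization the log2 change of Atr was 0.57, against 0.81 before, and that of Hipk2 was 0.35, against 0.59, still past the threshold (adjusted p = 0.00252 for Hipk2). The repair gene Ddb2, the growth arrest genes Gadd45b and Gadd45g and the etoposide-induced gene Ei24 were lower, with log2 changes of -0.97, -0.88, -0.68 and -0.67. The call of Ddb2 ended without WT array 1 (adjusted p = 0.0534) or 3 (0.0589). Genes of similar roles went other ways. Gadd45a, with a log2 change of -0.02, and the stress gene Ddit4, with 0.03, were not called, and the checkpoint kinase gene Chek1 and the p53 target Zmat3 were higher, with log2 changes of 0.46 and 0.48. Pdcd10, a gene of vascular integrity, had a log2 change of -0.99. Of 7 endothelial markers 5 were lower and 1 higher. Their summed intensity was 75.8 to 76.1 in KO and 78.0 to 80.0 in WT. The part of endothelial cells in the change of Pdcd10 was not tested. Atm, a kinase gene of the DNA damage response, is left uncertain, since its brighter probe was higher, with a log2 change of 0.29 (adjusted p = 0.0223, and 0.0620 after quantile normalization), and its other probe lower, with a log2 change of -0.74 (adjusted p = 2.87e-05).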

How the data were processed

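Biotin-labelled total RNA of the pooled ridges was measured on CodeLink Mouse 20k arrays with 1 colour, per the labels' protocols and the series' design text. The authors deposited linear intensities, 1 column per array, scaled to medians of 0.956 to 0.966. Software, background correction and flags: not given in the sources used here. Each array had 153 to 246 values at or below 0 and 190 to 212 empty cells, and the number of arrays limits the precision.

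Values under the 5th percentile of positive values, 0.0811, were set to it and log2 was taken, with no further scaling. Tested probes had a value on 2 or more arrays of each genotype and a mean over the 25th percentile of all probe means, 0.217. The test of KO against WT used limma 3.58.1 (R 4.3.3, intensity trend, genotype as the only term, two-sided, 3 arrays each), with Benjamini-Hochberg adjustment over all 15062 tested probes. Means ± SD are of deposited intensities, while log2 changes and their errors are of the floored values. The fit was tested on simulated data.

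GEO's platform annotation named the probes and gave 1 symbol for 15120 probes and several for 38 and left 5131 unnamed. Of the named probes, 15064 were found by Entrez identifier in a RefSeq table of GRCm38.p6. A gene with several probes was represented by its brightest one with a value on every array. All member genes found on the array are named. Of the other pathway genes, those called with at least a 1.5-fold change were named, up to 12, and of the marker lists only genes that a result turned on. Amhr2, Atm, Aurkb, Ccna2, Chek1, Ddit4, Gadd45a, Tpx2, Zmat3 and the named liver and gut genes were added after their values were seen. The members, their roles and the gene lists were chosen with earlier results of these data known. Alternatives were another floor, filter, scaling, variance prior, array weighting or choice of probe, the replicate number as a block, and leaving out each array.

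The replicate numbers of the titles are shared by the genotypes. Deviations from the genotype means of same-numbered arrays correlated at 0, -0.021 and -0.006, so the numbers were not taken as pairs.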

Additional observations from a re-analysis of the deposited data

How the results depend on the processing

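Of the 19 called genes, 10 kept call and direction in every alternative run, and over all 19 genes 284 of 319 values did. In 34 the call was lost in the same direction, and 1 changed sign, Birc2 with both probes averaged (-0.13). Of the 13 tested genes without a call, 9 values passed the threshold in the same direction. Their 16 changes of sign included Casp6 after quantile (-0.23) and cyclic loess normalization (-0.20), Casp8 with median centring (0.01) and array weights (0.07) and Fas after cyclic loess (-0.0029). The others came from leaving out 1 array, which gave log2 changes from -0.01 to 0.07 for Casp6, from -0.07 to 0.11 for Casp8, from -0.50 to 0.81 for Fas, from -0.03 to 0.13 for Bbc3, from -0.03 to 0.12 for Bcl2l11 and from -0.0042 to 0.43 for Mcl1. The cause was not tested.

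Counts moved by over 1.5 times in few settings. Among probes above the 50th percentile, where fewer genes are tested, 3 promoters were lower and the median of all tested members was 0.02 and that of the other pathway genes -0.01. One inhibitor was called lower in that setting, after quantile normalization, with array weights and with probes averaged, and 2 after cyclic loess. With probes averaged, 1 inhibitor was higher and the inhibitors' median was -0.13. The promoters' median was -0.13 after quantile and after cyclic loess normalization, and the p53 genes' median was -0.14 with array weights. Leaving out 1 array gave 6 to 10 higher and 7 to 9 lower members, 1 to 3 higher and 2 to 3 lower p53 genes, 3 to 4 higher and 4 to 6 lower promoters and 2 to 3 higher and 0 to 1 lower inhibitors. The lowest counts of higher members and p53 genes, 6 and 1, were without WT array 3. Medians then ran from -0.34 to -0.15 for p53 genes, from -0.24 to -0.03 for promoters, from -0.0042 to 0.25 for inhibitors and from -0.09 to -0.0038 for other pathway genes. The inhibitors' lowest median was without WT array 1.

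With the replicate block, 9 members were called higher and 9 lower, and the lost call was that of Cflar (adjusted p = 0.0514). Dim probes limit Fas, Mdm2, Bmf and Xiap, whose intervals are wide, and Perp, Apaf1 and Bcl2l1, which were not tested.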
